A study of Rattus norvegicus with 15 samples.

Results

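The liver makes most of the proteins that circulate in plasma, and 53 of their genes were followed here in rat liver: the fibrinogen chains, procoagulant and anticoagulant factors, complement components, acute phase proteins and plasma carriers. They were chosen by gene name and function. Of the 26407 entries in the deposited table, 50 carried one of these names. Kng1, Cfb and Saa4 were not analysed here, because no entry was found under those names. The other 50 fell into 8 roles, and 49 averaged at least 1 FPKM (a read level scaled for transcript length and library size) and were tested.

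The study sequenced total RNA from the livers of Wistar rats that had lost weight, been kept at the lower weight and then been allowed to regain it. All 15 libraries came from the first day of regain, with the liver taken after 24 h of refeeding and frozen at once. There were 5 libraries from rats that stayed sedentary and refed ad libitum (sedentary), and 5 from rats that ran on a treadmill during weight loss and maintenance and refed ad libitum (exercised). The other 5 came from sedentary rats on an energy gap-matched diet (gap-matched), which the labels do not define further. The labels give neither age nor sex, and they number the libraries without saying that each is a separate animal, so each p-value reflects the scatter of these samples alone, which may be technical.

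As background, these proteins are made by hepatocytes as precursors, pass through the endoplasmic reticulum and the Golgi, and enter the blood. Coagulation is a cascade of serine proteases that ends with thrombin cutting fibrinogen to fibrin, held back by antithrombin and the protein C and protein S pair. Complement is a related cascade that starts on antibodies, on microbial sugars or spontaneously, meets at C3 and ends in the membrane attack complex. Acute phase proteins are the subset of liver products whose synthesis changes when interleukin-6 and related cytokines reach the hepatocyte.

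The libraries held between 11008 and 11365 entries at or above 1 FPKM, and their relative depth, read from the steps of low values, ran from 0.678 to 1. Log2 values of libraries of one group correlated between 0.967 and 0.984. Hepatocyte markers were the most abundant of the 9 marker lists examined, with a median of 1549 FPKM over 9 genes and Tf at 13799. Kupffer cell markers had a median of 34.3 FPKM with Vsig4 listed at 0, and platelet, neutrophil and lymphocyte markers had medians under 1 FPKM, with Elane, Camp and Cd79a listed at 0. In bulk tissue, fewer cells of a type and less RNA per cell cannot be told apart.

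The plasma protein genes were among the most abundant transcripts of these livers. Together they held 11.3% of all FPKM other than that of albumin, Slc27a2 and 2 entries with a repeated identifier. The share was 11.2 ± 1.40% (SD, n = 5) in the sedentary livers, 11.3 ± 0.67% in the exercised and 11.3 ± 0.685% in the gap-matched. The single libraries ranged from 9.52% in sedentary library 5, the library of lowest relative depth, to 12.9% in sedentary library 3. Of the 50, 18 stood among the 100 most abundant entries of the table. Albumin and Slc27a2 were left out, because 11 and 2 of the 15 libraries hold a placeholder in place of their values. These shares and ranks therefore hold without them. Transthyretin (Ttr), the carrier of thyroxine and of the retinol-binding protein, averaged 14450.4 FPKM and ranked 4 of all entries. Haptoglobin (Hp), which binds free haemoglobin, averaged 14181 and ranked 5. Then came alpha-1-antitrypsin (Serpina1) at 9998, C-reactive protein (Crp) at 5509 and haemopexin (Hpx) at 4658. These 5 genes alone held 6.31%, 6.28% and 6.30% of FPKM in the sedentary, exercised and gap-matched groups.

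**Figure D1:**
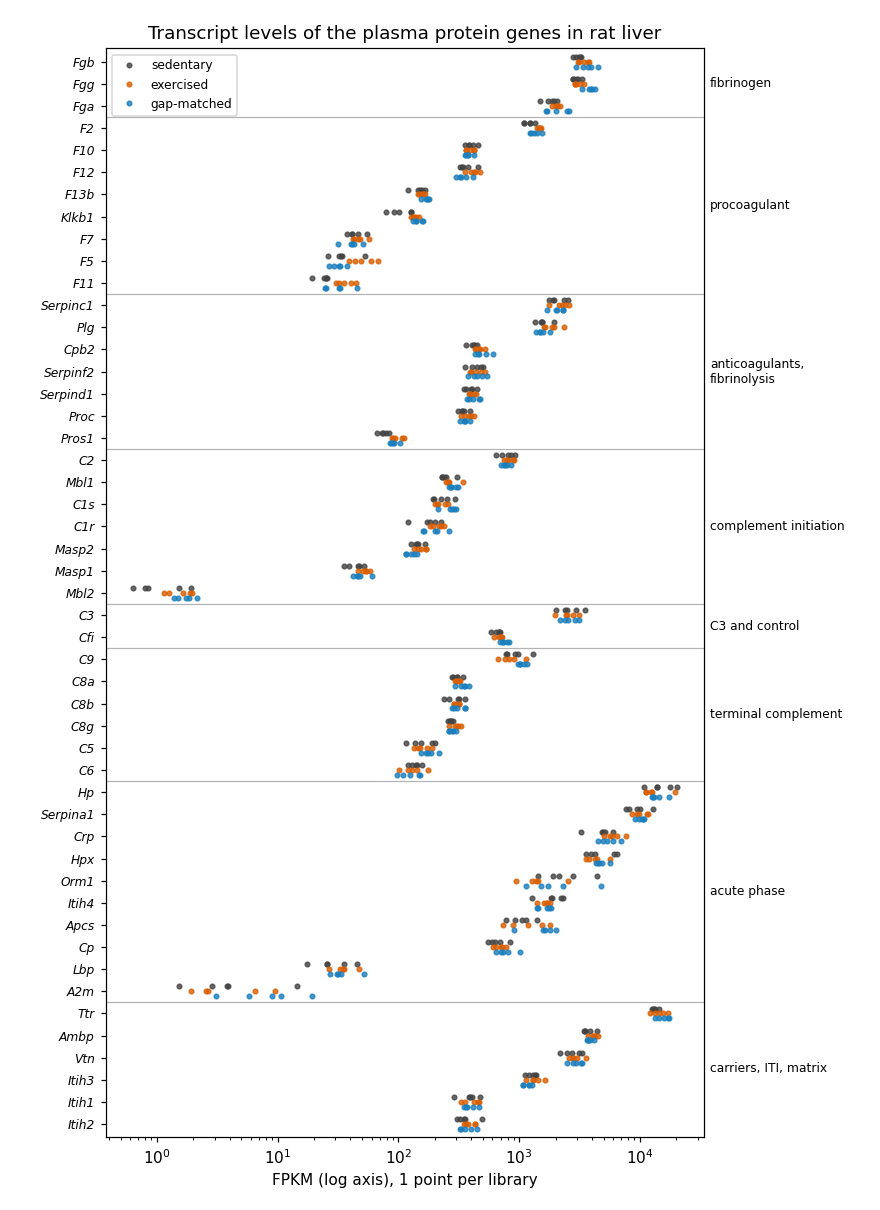
FPKM of each tested plasma protein gene (log axis), grouped by role, with 1 point per library coloured by group. Means over the 15 libraries run from Ttr at 14450.4 and Hp at 14181 FPKM to A2m at 6.49 and Mbl2 at 1.48, and the colours overlap for nearly every gene.

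At the lower end, coagulation factor V (F5) averaged 39.6 FPKM, lipopolysaccharide-binding protein (Lbp) 33.4, factor XI (F11) 30.9 and alpha-2-macroglobulin (A2m) 6.49. The mannose-binding lectin Mbl2 averaged 1.48 FPKM in the entry used, and a second entry under the same name averaged 1.10, so its reads may be split between them. Factor IX (F9) was listed at 0 in all 15 libraries. One of the 2 entries named Actb was also listed at 0 in every library while the other averaged 933.5, so a 0 in this table need not mean absence of the transcript.

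Across the 3 comparisons few plasma protein genes passed the test. Each gene was compared with limma on log2(FPKM + 1), fitted on all 11216 entries that averaged at least 1 FPKM, with p-values adjusted over all of them, so a difference below is on the log2(FPKM + 1) scale. Between exercised and sedentary livers 2 of 49 rose (F11 and Pros1) and none fell, beside 5.78% of all entries called (2.51% higher and 3.26% lower). Between gap-matched and sedentary livers 2 of 49 rose (Fgg and Klkb1) and none fell, beside 3.05% of all entries (0.820% higher and 2.23% lower). Between exercised and gap-matched livers none of 49 passed in limma, beside 0.900% of all entries (0.687% higher and 0.214% lower). An unadjusted p under 0.05 was found for 8, 10 and 5 of the 49 in the 3 comparisons in this order (16.3%, 20.4% and 10.2%), against 21.1%, 17.8% and 16.5% of all entries. The 3 comparisons share their groups, so they are not independent of one another. None of the 4 calls held when each library was scaled to the same FPKM sum (adjusted p = 0.0546 for F11, 0.0881 for Pros1, 0.104 for Fgg and 0.0703 for Klkb1), and only that of F11 held when the 2 groups compared were fitted alone (0.0547 for Pros1, 0.0745 for Fgg and 0.0767 for Klkb1). Fgg was also lost without the filter (0.157), with quantile normalization (0.189) and with a robust trend (0.056).

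The sizes of the differences were small for most of these genes. The median difference was 0.10 for exercised minus sedentary against 0.01 over all entries, 0.10 for gap-matched minus sedentary against -0.03, and -0.01 for exercised minus gap-matched against 0.04, where the sign turned to 0.04 with the same FPKM sum and to 0.05 with quantile normalization. The gap-matched minus sedentary median was 0.03 with the same FPKM sum (against -0.10 over all entries), 0.06 with quantile normalization and 0.15 with median of ratios. Without sedentary library 5, which was the lowest of its group in 31 of the 49 genes, the first 2 medians were 0.05 and 0.04. The estimate was above 0 for 39 of 49 genes (79.6%, against 51.3% of all entries) in the first comparison and for 35 (71.4% against 42.8%) in the second. It was above 0 for 24 (49.0% against 57.8%) in the last. The 49 genes were read in the same libraries, so their signs are not separate observations. The 95% confidence interval of the difference lay within a log2 difference of 1 in either direction for 47, 47 and 46 of the 49 genes, and within 0.5 for 33, 35 and 37. Those last counts were 67.3%, 71.4% and 75.5%, beside 62.5%, 65.1% and 64.5% of all entries.

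**Figure D2:**
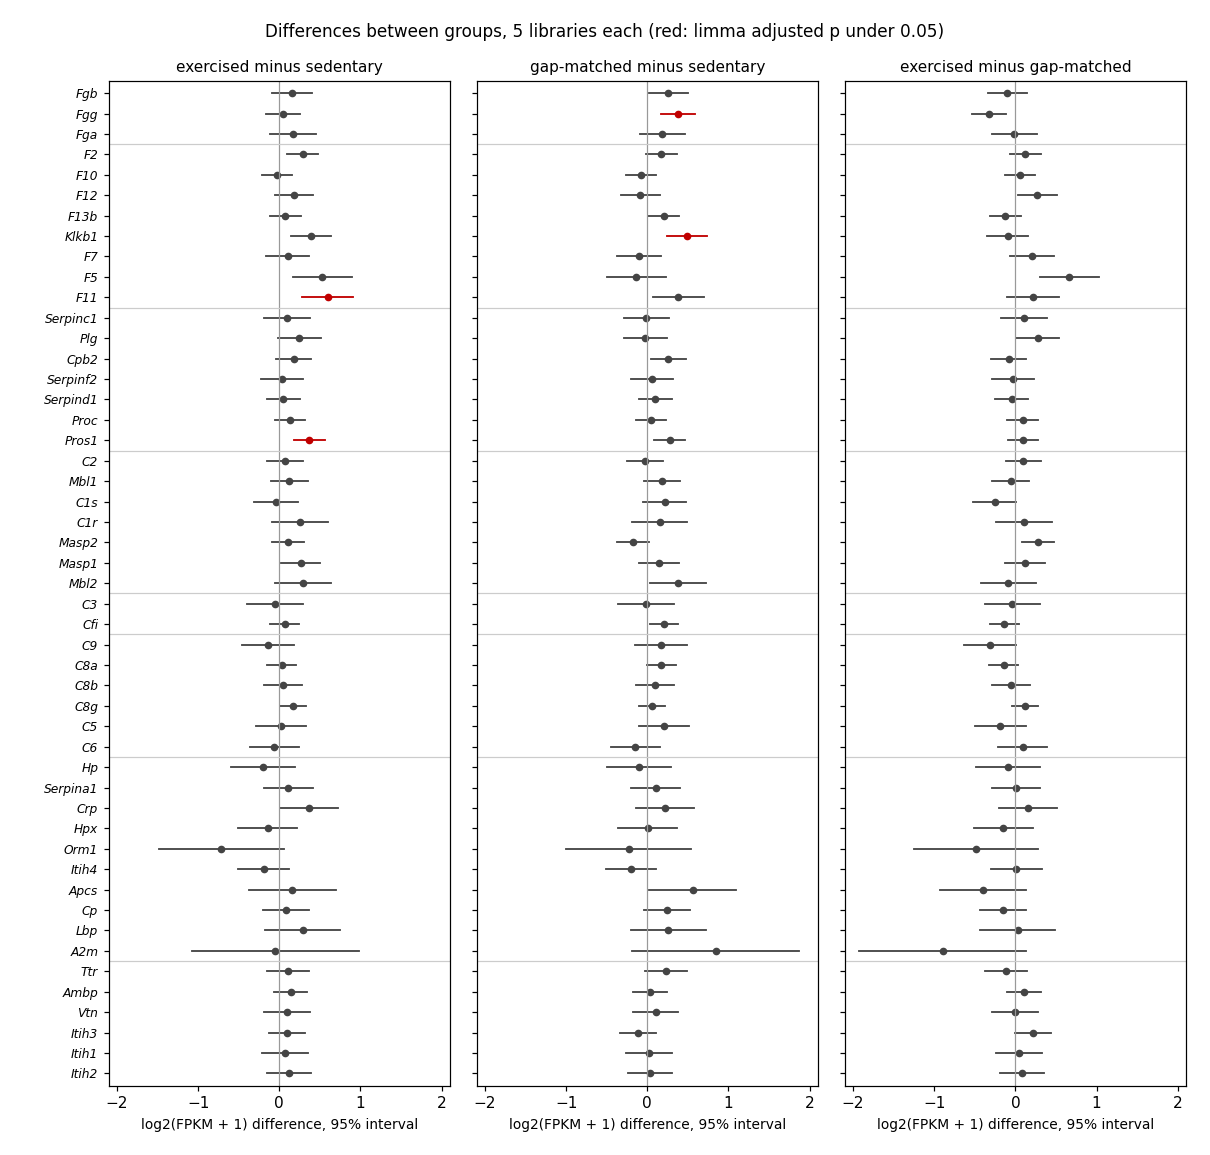
Log2 differences with 95% confidence intervals from limma for every tested plasma protein gene in the 3 comparisons, grouped by role, with red for an adjusted p under 0.05. The red points are F11 and Pros1 (exercised minus sedentary) and Fgg and Klkb1 (gap-matched minus sedentary), and the widest intervals belong to A2m and Orm1.

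Fibrinogen is a dimer of 3 paired chains encoded by Fga, Fgb and Fgg, which lie in a row in the rat genome (Fgg, Fga, Fgb) with no annotated gene between them in RefSeq GRCr8. Fgg, the gamma chain that carries the main platelet-binding end, read 2763, 3095, 2763, 3293 and 2979 FPKM in the sedentary libraries. In the exercised libraries it read 2967, 2899, 3439, 2905 and 3189, and in the gap-matched libraries 3926, 3330.1, 4280.3, 4031 and 3795. Every gap-matched library lay above every sedentary one, while the exercised libraries overlapped both groups. The gap-matched mean of 3872 ± 352 (SD, n = 5) compared with 2979 ± 227 in sedentary livers, a rise of 0.38 ± 0.10 (SE; 95% CI 0.17 to 0.59; limma adjusted p = 0.0488). The exercised mean was 3079.8 ± 233, a difference of 0.05 ± 0.10 from sedentary (adjusted p = 0.834) and of -0.33 ± 0.10 from gap-matched (adjusted p = 0.127).

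The call for Fgg was close to the threshold. It held without sedentary library 4 (adjusted p = 0.0465) or gap-matched library 2 (0.045). It was lost when sedentary library 1, 2, 3 or 5 was left out (0.11, 0.0945, 0.102 and 0.086) and when gap-matched library 1, 3, 4 or 5 was (0.0932, 0.0928, 0.102 and 0.0896).

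The beta chain, Fgb, was the most abundant of the 3 and read 2949, 3113, 3249, 3208 and 2774 FPKM in the sedentary, 3149, 3799, 3681, 3444 and 3053 in exercised and 3928, 2978, 4474, 3716 and 3352 in gap-matched libraries. The alpha chain, Fga, which was picked for description after its values were seen, read 1734, 1924, 1881, 2051 and 1495, then 1865, 2170.3, 2066, 2025 and 2058, then 2477, 1662, 2584, 2026 and 1698 in the same order. Both chains overlapped between all groups, with gap-matched library 3 highest of its group and gap-matched library 2 lowest for all 3 chains. Fgb differed by 0.26 ± 0.12 between gap-matched and sedentary livers (adjusted p = 0.251) and by 0.16 ± 0.12 between exercised and sedentary livers (adjusted p = 0.466). For Fga these values were 0.19 ± 0.13 (adjusted p = 0.489) and 0.17 ± 0.13 (adjusted p = 0.505).

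The ratios between the chains varied less than their levels. Fga over Fgb had a median of 0.579 over the 15 libraries, between 0.506 and 0.674, with a coefficient of variation of 7.32%, beside 14.6%, 13.4% and 14.7% for the levels of Fga, Fgb and Fgg. Fgg over Fgb had a median of 0.994, between 0.763 and 1.13, and a coefficient of variation of 10.8%. By group it averaged 0.976 ± 0.0862 in the sedentary, 0.906 ± 0.107 in the exercised and 1.06 ± 0.0767 in the gap-matched livers (SD, n = 5 each), and the groups overlapped.

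RefSeq promoter windows, 300 bases from 250 before to 50 after the transcription start in the GRCr8 build, were matched to 41 of the 53 genes. Exact matches on both strands were sought for 4 short motifs of liver transcription factors: the HNF1 element GTTAAT, the C/EBP element TTGCNNAA, the STAT element TTCNNNGAA and the FOXA element TGTTTAC. The HNF1 letters stood in 9 of 41 windows (22.0%, against 7.45% of all 33469 promoters) and the C/EBP letters in 16 (39.0% against 10.6%). The STAT letters stood in 7 (17.1% against 8.87%) and the FOXA letters in 6 (14.6% against 3.78%). The 6 windows below are shown because they belong to the fibrinogen pair with one called and one uncalled chain, to the other called genes, and to Orm1, whose level varied widely. Capitals mark the matches of any of the 4 motifs on either strand, including overlapping ones.
Fgb (chr2:170700826-170701125, - strand): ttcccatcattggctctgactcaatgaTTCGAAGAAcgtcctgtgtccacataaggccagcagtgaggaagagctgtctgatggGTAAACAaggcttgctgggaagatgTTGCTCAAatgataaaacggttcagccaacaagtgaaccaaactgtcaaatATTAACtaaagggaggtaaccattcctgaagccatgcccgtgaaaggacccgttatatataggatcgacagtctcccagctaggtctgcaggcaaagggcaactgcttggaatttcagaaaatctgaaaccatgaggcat
Fgg (chr2:170652833-170653132, + strand): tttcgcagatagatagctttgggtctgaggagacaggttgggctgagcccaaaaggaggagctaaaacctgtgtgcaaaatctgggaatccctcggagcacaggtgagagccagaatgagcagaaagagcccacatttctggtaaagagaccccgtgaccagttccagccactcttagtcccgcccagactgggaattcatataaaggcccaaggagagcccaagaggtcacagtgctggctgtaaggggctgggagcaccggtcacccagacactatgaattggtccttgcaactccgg
F11 (chr16:53720252-53720551, + strand): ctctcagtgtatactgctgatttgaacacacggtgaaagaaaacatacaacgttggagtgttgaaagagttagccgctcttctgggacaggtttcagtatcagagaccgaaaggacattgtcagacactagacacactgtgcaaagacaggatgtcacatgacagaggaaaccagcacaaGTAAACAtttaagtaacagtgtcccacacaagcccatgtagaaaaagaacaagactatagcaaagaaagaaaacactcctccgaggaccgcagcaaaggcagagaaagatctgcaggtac
Klkb1 (chr16:53690976-53691275, + strand): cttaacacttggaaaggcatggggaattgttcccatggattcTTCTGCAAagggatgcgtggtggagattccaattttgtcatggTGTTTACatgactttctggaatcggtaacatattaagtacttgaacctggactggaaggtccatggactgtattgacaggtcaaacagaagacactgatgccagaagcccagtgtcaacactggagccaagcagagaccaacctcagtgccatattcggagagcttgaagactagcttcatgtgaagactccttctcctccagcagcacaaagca
Pros1 (chr11:13677049-13677348, + strand): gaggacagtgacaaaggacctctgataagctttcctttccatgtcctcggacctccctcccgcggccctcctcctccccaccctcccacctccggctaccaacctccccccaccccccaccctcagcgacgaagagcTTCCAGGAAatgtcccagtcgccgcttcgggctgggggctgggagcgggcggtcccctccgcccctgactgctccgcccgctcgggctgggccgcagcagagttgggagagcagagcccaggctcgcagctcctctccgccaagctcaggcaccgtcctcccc
Orm1 (chr5:81788259-81788558, + strand): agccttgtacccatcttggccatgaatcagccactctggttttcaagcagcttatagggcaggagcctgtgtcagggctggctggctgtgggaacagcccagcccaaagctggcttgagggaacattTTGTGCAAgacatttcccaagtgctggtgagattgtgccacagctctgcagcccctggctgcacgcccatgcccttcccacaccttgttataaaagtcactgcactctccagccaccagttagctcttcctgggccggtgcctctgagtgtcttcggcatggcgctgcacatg
The Fgb window held all 4 motifs and the Fgg window none, although Fgb averaged 3391 and Fgg 3310.2 FPKM. The window of F11 held a FOXA match, that of Klkb1 a C/EBP and a FOXA match, that of Pros1 a STAT match and that of Orm1 a C/EBP match. A match describes letters only, and the absence of a match in this window says nothing about the factor.

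Among the 8 procoagulant factors tested, F11 rose between exercised and sedentary livers and Klkb1 between gap-matched and sedentary livers. F11 is the zymogen that activates factor IX, and it read 25.3, 24.1, 25.1, 25.6 and 19.2 FPKM in the sedentary libraries and 35.3, 40.5, 30.6, 44.8 and 32.4 in the exercised libraries. In the gap-matched libraries it read 45.1, 24.7, 32.0, 25.2 and 32.8. Every exercised library was above every sedentary one, while gap-matched libraries 2 and 4 fell within the sedentary range. The exercised mean was 36.7 ± 5.85 against 23.9 ± 2.70 (SD, n = 5), a rise of 0.60 ± 0.15 (SE; 95% CI 0.28 to 0.91; limma adjusted p = 0.0291). The gap-matched mean of 32.0 ± 8.23 gave a difference of 0.38 ± 0.15 (95% CI 0.06 to 0.70; adjusted p = 0.19), and exercised minus gap-matched was 0.21 ± 0.15 (adjusted p = 0.5). The F11 call was lost without sedentary library 2 or 5 (adjusted p = 0.0633 and 0.0775) and without exercised library 1, 2 or 4 (0.0587, 0.0652 and 0.0721), and held in the other 5 of 10 such fits.

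Klkb1 encodes plasma prekallikrein, whose active form activates factor XII and releases bradykinin, and it lies next to F11 in RefSeq GRCr8. It read 92.0, 79.0, 126, 126 and 101 FPKM in the sedentary, 138, 126, 147, 132 and 134 in the exercised and 157, 133, 159.8, 139 and 138 in the gap-matched libraries. Every gap-matched library was above every sedentary one, and among the exercised libraries only library 2 reached the sedentary range. Its gap-matched mean of 145 ± 12.3 against 105 ± 20.9 in sedentary livers was a rise of 0.49 ± 0.12 (SE; 95% CI 0.24 to 0.73; limma adjusted p = 0.034). The exercised mean of 136 ± 7.71 gave a difference of 0.39 ± 0.12 that missed the threshold (adjusted p = 0.0637). The gap-matched call held without sedentary library 3 or 4 (0.0266 and 0.0185). It was lost without sedentary library 1, 2 or 5 (0.0823, 0.0858 and 0.0716) and without any one of gap-matched libraries 1 to 5 (0.0766, 0.0533, 0.067, 0.0609 and 0.0579). The exercised difference passed without sedentary library 3 or 4 (0.0328 and 0.0338).

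**Figure D3:**
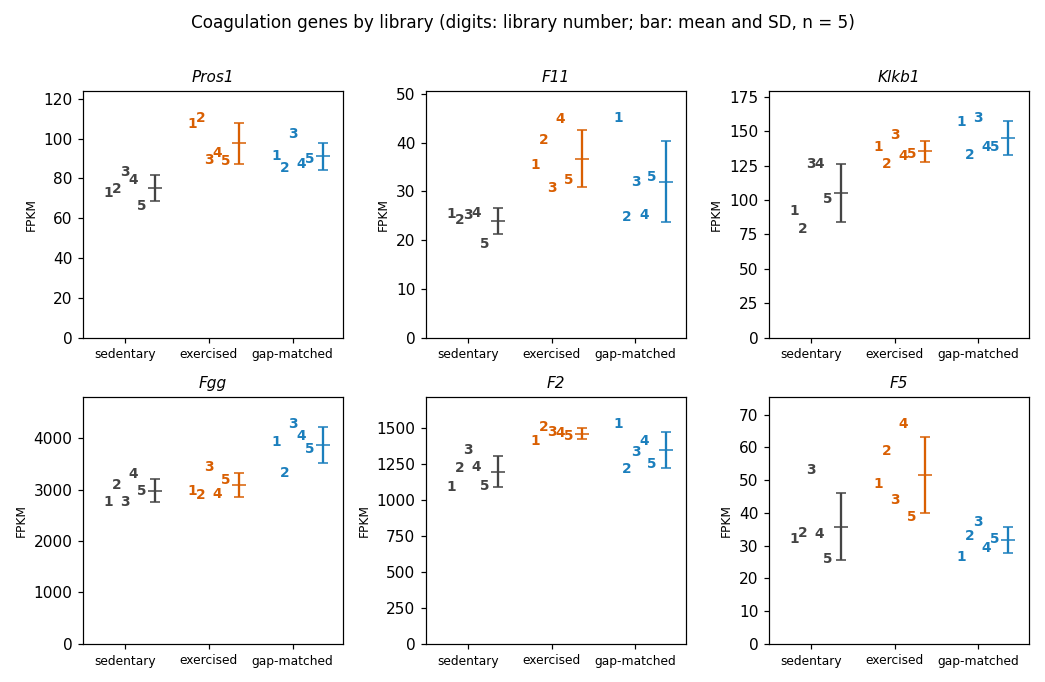
FPKM of 6 coagulation genes in every library by group, with the group mean and SD (n = 5). Pros1 and F11 are higher in all exercised than in all sedentary libraries, Fgg and Klkb1 in all gap-matched than in all sedentary libraries, and F5 in all exercised than in all gap-matched libraries.

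Prothrombin (F2), the precursor of thrombin and the most abundant procoagulant factor, read 1093, 1225, 1346, 1228 and 1097 FPKM in the sedentary, 1409.9, 1511, 1475, 1469.8 and 1446 in exercised and 1532, 1216, 1332, 1410.3 and 1251 in gap-matched libraries. All exercised libraries were above all sedentary ones, and they were also the tightest group, at 1462 ± 37.4 (SD) against 1198 ± 106 and 1348 ± 127. The exercised minus sedentary difference of 0.29 ± 0.09 (95% CI 0.10 to 0.48) nevertheless missed the adjusted threshold (adjusted p = 0.0698), and it passed without sedentary library 3 (0.0471). Groups that do not overlap were found for 6.81% of all entries in this comparison (3.15% with the exercised group higher and 3.66% with it lower) and for 3 of the 49 genes, F2, F11 and Pros1, all with the exercised group higher. Between gap-matched and sedentary livers they were Fgg, Klkb1 and Pros1, beside 6.03% of all entries (1.47% higher and 4.56% lower).

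F5 encodes the cofactor that speeds prothrombin activation, and it read 32.2, 33.8, 53.0, 33.6 and 25.9 FPKM in sedentary and 48.9, 58.9, 43.9, 67.2 and 38.6 in exercised libraries. In the gap-matched libraries it read 26.6, 33.1, 37.2, 29.4 and 32.1. Every exercised library was above every gap-matched one, and F5 was the single gene of the 49 without overlap there, beside 3.32% of all entries (2.27% higher and 1.04% lower). Sedentary library 3 stood within the exercised range. The exercised minus gap-matched difference was 0.66 ± 0.17 (95% CI 0.30 to 1.03; adjusted p = 0.0814) and the exercised minus sedentary difference 0.53 ± 0.17 (adjusted p = 0.0838). The first passed without exercised library 5 (0.0496), and the other without sedentary library 3 (0.0196) or exercised library 5 (0.0486). Factor XII (F12), the contact-phase zymogen, averaged 368 ± 51.8, 416 ± 41.3 and 346 ± 44.9 in sedentary, exercised and gap-matched livers and passed in no comparison. F7, F10 and F13b ranged over the 15 libraries from 31.4 to 57.4, from 355 to 458 and from 119.8 to 179 FPKM, and passed in none either.

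Of the 7 anticoagulant and fibrinolytic genes, Pros1 rose between exercised and sedentary livers and the other 6 did not pass. Pros1 encodes protein S, the cofactor of activated protein C, and it read 72.9, 74.7, 83.2, 79.1 and 66.3 FPKM in the sedentary, 107, 110.5, 89.2, 92.7 and 88.6 in exercised and 91.4, 85.2, 102, 87.2 and 89.6 in gap-matched libraries. All 5 sedentary libraries lay below all 10 others. The exercised mean of 97.6 ± 10.4 against 75.2 ± 6.37 (SD, n = 5) was a rise of 0.37 ± 0.09 (SE; 95% CI 0.18 to 0.56; limma adjusted p = 0.0234). The gap-matched mean of 91.1 ± 6.63 gave a difference of 0.27 ± 0.09 (adjusted p = 0.112), and exercised minus gap-matched was 0.10 ± 0.09 (95% CI -0.09 to 0.28; adjusted p = 0.614). The call was lost without sedentary library 1, 2 or 5 (adjusted p = 0.0543, 0.057 and 0.0648) and without exercised library 1 or 2 (0.0653 and 0.0568), and held in the other 5 of 10 fits.

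Antithrombin (Serpinc1), the main inhibitor of thrombin, averaged 2095 ± 322 FPKM in sedentary, 2232 ± 319 in exercised and 2072 ± 252 in the gap-matched livers. Plasminogen (Plg), the precursor of the enzyme that dissolves fibrin, averaged 1579 ± 226, 1877 ± 306 and 1544 ± 157, and exercised minus sedentary was 0.25 ± 0.13 (adjusted p = 0.279). Carboxypeptidase B2 (Cpb2), which slows fibrinolysis, averaged 412 ± 31.3, 466 ± 34.0 and 497 ± 71.3, and gap-matched minus sedentary was 0.26 ± 0.10 (adjusted p = 0.183). None of these differences passed. Protein C (Proc), heparin cofactor II (Serpind1) and alpha-2-antiplasmin (Serpinf2) ranged over the libraries from 312 to 423, from 351 to 476 and from 353 to 543 FPKM.

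Summed marker levels of liver cell types in the same libraries give the setting of these coagulation results, and of the 9 marker lists only the hepatocyte gene Cyp2e1, a cytochrome P450 enzyme, passed in any comparison (exercised minus sedentary 0.75 ± 0.20 in limma, adjusted p = 0.0408). In that comparison 5.78% of all entries were called. The summed Kupffer cell markers, 10 of 12 at or above 1 FPKM, ran from 364 to 628 FPKM in sedentary, 541 to 760 in exercised and 504 to 748 in gap-matched libraries. The summed endothelial markers, 12 of 12 above 1 FPKM, ran from 149 to 222, 188 to 249.5 and 176 to 250.4, and the summed hepatocyte markers (9 of 10 genes, without Alb) from 21931 to 29154, 24313 to 31830 and 21401 to 25361. An unadjusted p under 0.05 was found for 6 of the 10 tested Kupffer markers between exercised and sedentary livers, all with the exercised mean higher, and for 2 of the 3 tested erythroid markers between gap-matched and sedentary livers. Over all entries these shares were 21.1% and 17.8%. Of the 10 Kupffer estimates 8 were above 0, over a range of -0.36 to 0.40. The smallest limma adjusted p was 0.187 in the Kupffer list and 0.147 in the erythroid list in these comparisons. The summed erythroid markers (7 of 9 genes, with Alas2 at 0) ran from 616 to 1329 in sedentary, 728 to 1392 in exercised and 1203 to 1836 in gap-matched libraries, and the sums of the other 5 lists overlapped between all groups. Sedentary library 5 was lowest in its group for the sums of the Kupffer, endothelial and hepatocyte lists and had the lowest relative depth, at 0.678. The part of these differences in the coagulation results was not tested.

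Of 21 tested genes from a list of 26 other coagulation and fibrinolysis genes, which included von Willebrand factor, tissue factor pathway inhibitor and the vitamin K cycle enzymes, none passed in limma in any comparison. Their number at an unadjusted p under 0.05 was 4 for exercised minus sedentary, 2 for gap-matched minus sedentary and 3 for exercised minus gap-matched, beside 21.1%, 17.8% and 16.5% of all entries.

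No complement gene of the 15 tested passed in limma in any comparison, with 2, 2 and 1 at an unadjusted p under 0.05, beside 21.1%, 17.8% and 16.5% of all entries. C3, the protein on which the 3 activation routes meet, was the most abundant, at 2675 ± 587 FPKM in sedentary, 2559 ± 437 in exercised and 2617 ± 382 in the gap-matched livers (SD, n = 5). Its differences were -0.05 ± 0.16 (95% CI -0.39 to 0.29; adjusted p = 0.895) for exercised minus sedentary and -0.02 ± 0.16 (95% CI -0.36 to 0.32; adjusted p = 0.972) for gap-matched minus sedentary. Cfi, the protease that inactivates C3b, ranged from 580.4 to 822 FPKM and was among the steadiest of these genes, with a within-group SD of 0.10 on the log2 scale.

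Among the 7 initiators, C2, the catalytic part of the C3 convertase, led with 789.6 ± 112, 828 ± 65.1 and 772 ± 58.8 FPKM in the sedentary, exercised and gap-matched groups. Masp2, the protease that acts after mannose-binding lectin, averaged 144 ± 13.7, 155 ± 14.6 and 127 ± 12.2. Masp2 had the smallest adjusted p of the 7 between exercised and gap-matched livers, at 0.164 for a difference of 0.28 ± 0.09. C1r, C1s, Masp1 and Mbl1 ranged from 119 to 264, from 192 to 297, from 35.2 to 60.6 and from 227 to 341 FPKM.

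The 6 terminal components ranged from C6 at a mean of 132 FPKM to C9 at 954. C9, which polymerises into the membrane pore, averaged 949 ± 208 in sedentary, 859 ± 181 in exercised and 1053 ± 74.4 in the gap-matched livers, and exercised minus gap-matched was -0.32 ± 0.15 (adjusted p = 0.309). The 3 chains of C8, which join in 1 complex, stood at 317 (C8a), 306 (C8b) and 282 (C8g) FPKM. C8a over C8b had a median of 1.06 and a coefficient of variation of 8.45% over the 15 libraries, and C8g over C8b a median of 0.928 and 10.9%. The levels of C8a, C8b and C8g had coefficients of variation of 9.15%, 11.2% and 7.62%, so C8g over C8b varied more than C8g itself. C8g had the smallest within-group SD of all 49 genes, 0.09 on the log2 scale, in the 0.98th percentile of all tested entries.

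From a list of 26 other complement genes, of which 19 were tested, 1 rose between exercised and sedentary livers and none fell. Over all entries 5.78% were called (2.51% higher and 3.26% lower). Cfd (factor D, which starts the alternative pathway by cutting factor B) averaged 16.0 ± 2.52 FPKM in sedentary and 23.4 ± 3.60 in exercised livers, a rise of 0.53 ± 0.12 (limma adjusted p = 0.0194). The Cfd call was lost without sedentary library 2 or 5 (0.0578 and 0.0517) or exercised library 1 (0.055).

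**Figure D4:**
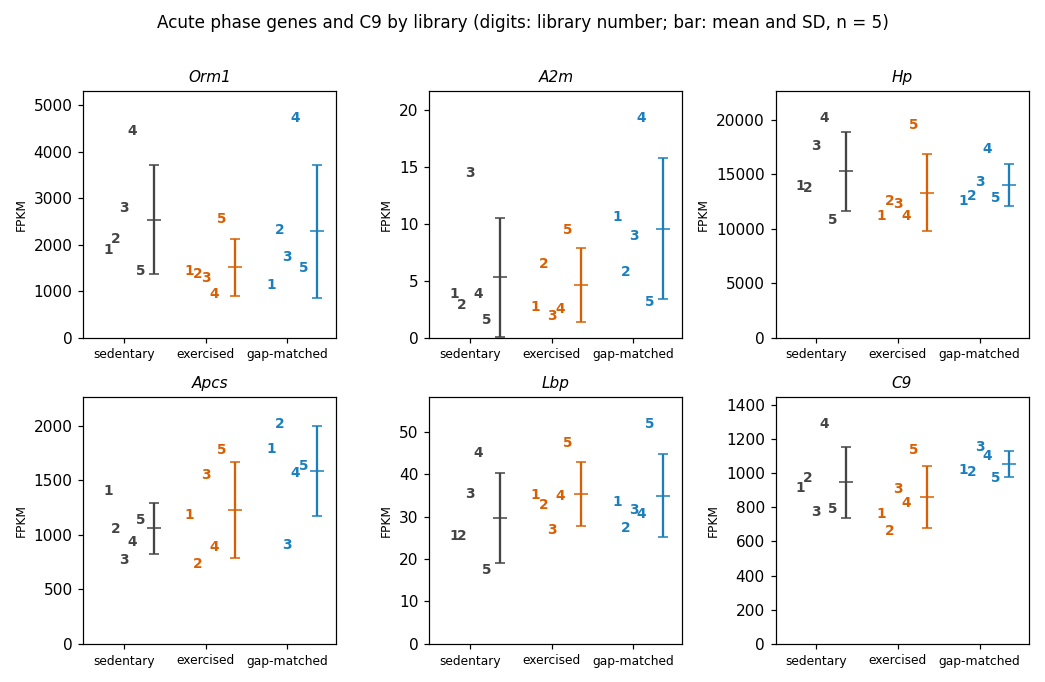
FPKM of 6 acute phase and terminal complement genes in every library by group, with the group mean and SD (n = 5). Orm1, A2m and Hp spread widely within each group, and exercised library 5 is the highest of its group for Orm1, A2m, Hp, Apcs and Lbp.

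The acute phase proteins varied most from library to library. Their median within-group SD was 0.29 on the log2 scale, in the 78.0th percentile of all tested entries, against 0.14 to 0.20 for the medians of the other 7 roles. All 10 exceeded the median of all entries. None passed in limma in any comparison, with 1, 1 and 0 of 10 at an unadjusted p under 0.05, beside 21.1%, 17.8% and 16.5% of all entries. A2m, a broad protease trap that in rats is a strong acute phase protein, read 3.81, 2.87, 14.5, 3.87 and 1.52 FPKM in the sedentary, 2.67, 6.43, 1.91, 2.56 and 9.48 in exercised and 10.6, 5.76, 8.97, 19.3 and 3.11 in gap-matched libraries. Its within-group SD of 0.88 was higher than that of 99.0% of entries, and the highest library was 12.7-fold above the lowest. Gap-matched minus sedentary was 0.84 ± 0.49 (95% CI -0.19 to 1.87; adjusted p = 0.384). A2m, Orm1, Apcs and Lbp were picked for description after their values were seen.

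Orm1, alpha-1-acid glycoprotein and a carrier of basic drugs, read 1896, 2132, 2798, 4435 and 1441 FPKM in the sedentary, 1434, 1371, 1288, 936 and 2556 in exercised and 1143, 2322, 1727, 4729 and 1504 in gap-matched libraries. Sedentary library 4 and gap-matched library 4 were the highest, exercised library 5 was the highest of its group, and the groups overlapped. Exercised minus sedentary was -0.72 ± 0.36 (95% CI -1.48 to 0.05; adjusted p = 0.275). The highest library was 5.05-fold above the lowest.

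Haptoglobin, the most abundant acute phase transcript, read 13895, 13766, 17582, 20176 and 10827 FPKM in the sedentary, 11145, 12495, 12257, 11153 and 19499 in exercised and 12579.5, 12980.0, 14279, 17266 and 12819.5 in gap-matched libraries. Exercised library 5 stood apart from the other 4 exercised libraries, which lay between 11145 and 12495. The group means were 15249 ± 3650.4, 13309.7 ± 3515 and 13985 ± 1949 (SD, n = 5), and exercised minus sedentary was -0.20 ± 0.19 (adjusted p = 0.609). That difference was -0.34 without exercised library 5, -0.31 without sedentary library 5 and -0.088 without sedentary library 4, and passed in none of these fits (adjusted p = 0.247, 0.396 and 0.843).

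Apcs, serum amyloid P and a pentraxin like Crp, read 1401, 1051, 772, 929 and 1139 FPKM in the sedentary, 1184, 728, 1544, 886 and 1781 in exercised and 1782, 2018, 909, 1566 and 1633 in gap-matched libraries. Gap-matched library 3 was the one gap-matched library within the sedentary range. Gap-matched minus sedentary was 0.56 ± 0.25 (95% CI 0.03 to 1.09; adjusted p = 0.257). Lbp, which hands bacterial lipopolysaccharide to CD14, averaged 29.8 ± 10.6, 35.4 ± 7.47 and 35.0 ± 9.73 FPKM and passed in no comparison. Of the rest, ceruloplasmin (Cp), Itih4, Hpx, Crp and Serpina1 ranged from 556 to 1014, from 1269 to 2308, from 3565 to 6456, from 3246 to 7718 and from 7669 to 12823 FPKM.

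A few libraries were the highest or lowest of their group in many acute phase genes. Exercised library 5 was the highest of its group in 9 of the 10 genes, gap-matched library 4 in 6, and sedentary library 4 in 5. Over all entries these libraries were the highest of their group in 23.4%, 11.9% and 25.1%. For Crp, exercised library 5 was instead the lowest of its group, at 5065 FPKM against 5696 to 7718 in the rest. Sedentary library 5 was the lowest in 8, beside 25.6% of all entries. Over all 49 genes, sedentary library 3 was the highest of its group in 28 (57.1%, against 22.7% of all entries) and sedentary library 5 the lowest in 31 (63.3% against 25.6%). Gap-matched library 2 was the lowest of its group in 29 (59.2% against 33.4%). Exercised library 2 and gap-matched library 1 were each the highest of their group in 21 (42.9%, against 23.4% and 33.5%).

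**Figure D5:**
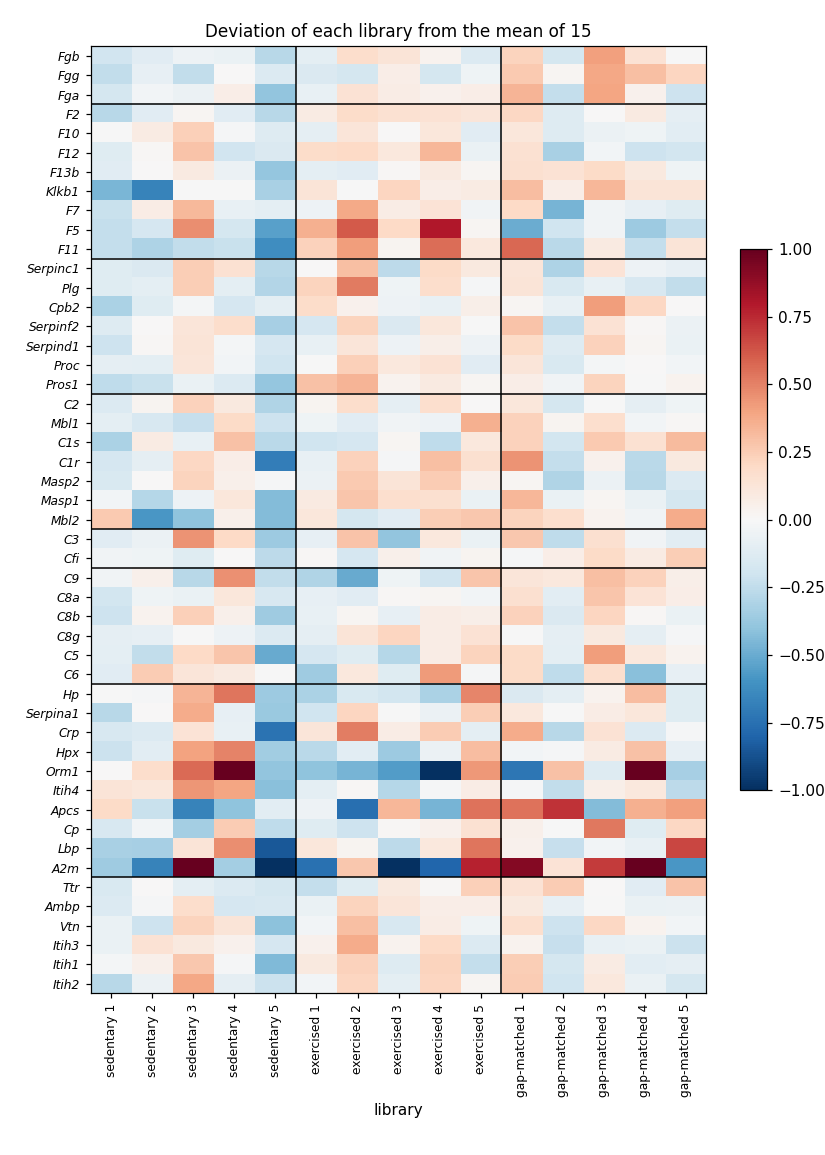
Each tested plasma protein gene (rows, grouped by role) in each library (columns, by group), coloured by its log2(FPKM + 1) minus the gene's mean over the 15 libraries. Sedentary library 5 is the lowest of its group for 31 of 49 genes, and exercised library 5 the highest of its group for 9 of 10 acute phase genes. Over all entries these shares are 25.6% and 23.4%.

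Other measures differed between those libraries as well. Exercised library 5 had the highest Kupffer marker sum (760 FPKM) and the highest neutrophil and monocyte marker sum (109 FPKM, 4 of 10 genes at or above 1 FPKM and Elane and Camp at 0) of the 15. Sedentary library 4 had the highest of its group in both lists, at 628 and 82.9 FPKM. Gap-matched library 4 had the lowest of its group in both, at 504 and 36.5 FPKM. The neutrophil and monocyte list had a median of 0.256 FPKM while its gene Lyz2 averaged 50.5. Its sum therefore came mostly from Lyz2 and is no measure of the number of these cells. Relative depth was 0.92 in exercised library 5, 0.871 in sedentary library 4 and 0.973 in gap-matched library 4. Their part in the acute phase pattern was not tested.

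None of the 6 carriers and inter-alpha-inhibitor chains passed in limma in any comparison, and none had an unadjusted p under 0.05. Ttr averaged 13291 ± 679 FPKM in sedentary, 14430.3 ± 1874 in exercised and 15629.7 ± 1797 in the gap-matched livers (SD, n = 5), and gap-matched minus sedentary was 0.23 ± 0.12 (95% CI -0.03 to 0.49; adjusted p = 0.345). Ambp, the precursor of bikunin, ranged from 3452 to 4517 FPKM, and vitronectin (Vtn), an adhesion protein that also shields cells from complement, from 2159.7 to 3539.9. The heavy chains Itih1, Itih2 and Itih3 averaged 395, 375 and 1263 FPKM. Itih1 over Itih2 had a median of 1.06 with a coefficient of variation of 9.12%. Over all 49 tested genes, 41 had a coefficient of variation under 20% across the 15 libraries, and 25 had a within-group SD below the median of all entries.

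The machinery upstream of these proteins was read from lists of 16 acute phase signalling genes, 11 liver transcription factors and 31 genes of the secretory route. Between exercised and sedentary livers Il6st, the signalling subunit of the interleukin-6 receptor family, rose from 42.3 ± 3.56 to 63.3 ± 9.22 FPKM, by 0.56 ± 0.11 (limma adjusted p = 0.0103), the only call among the 16. In that comparison 5.78% of all entries were called. Every exercised library, from 52.8 to 77.5 FPKM, was above every sedentary library, from 36.4 to 45.3. Groups without overlap were found there for 6.81% of all entries (3.15% with the exercised group higher). None of the 11 transcription factors passed in limma in any comparison, with 4, 3 and 5 at an unadjusted p under 0.05, beside 21.1%, 17.8% and 16.5% of all entries.

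In the secretory route, Pdia4, a disulfide isomerase of the endoplasmic reticulum, fell between exercised and sedentary livers, from 258 ± 9.63 to 182 ± 21.2 FPKM, a difference of -0.51 ± 0.09 (limma adjusted p = 0.00432). It was the only one of 30 tested to pass in that comparison, beside 5.78% of all entries. Between gap-matched and sedentary livers Ssr3, a subunit of the translocon-associated complex, rose from 72.9 ± 4.58 to 97.6 ± 5.71, by 0.42 ± 0.09 (adjusted p = 0.0221). Ssr3 was the only one of the 30 to pass there, beside 3.05% of all entries. The Ssr3 call was lost without sedentary library 2 or 3 (0.0604 and 0.0583) or gap-matched library 2 or 4 (0.0566 and 0.0546). Between exercised and gap-matched livers no gene of these lists passed in limma, with 4 signalling, 5 transcription factor and 7 secretory route genes at an unadjusted p under 0.05, beside 16.5% of all entries. In a further list of 25 tested liver-secreted proteins none passed in limma in any comparison, with 5, 5 and 3 at an unadjusted p under 0.05, beside the same 21.1%, 17.8% and 16.5%.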

How the data were processed

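Total RNA of rat liver had been sequenced in 15 libraries, 5 in each of 3 groups, and the deposited table gives 1 FPKM value per gene and library. The authors' notes on processing name Trimmomatic, Cufflinks and Rnor_5.0 without giving their role or order, per the submitters' processing notes. The aligner, strand setting and filters are not given in the sources used here. FPKM carries no count, so read depth is known only relatively, from the steps of low values.

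From the 26407 entries, 2 with a repeated identifier and 2 with a placeholder of 999999999 (Alb in 11 libraries, Slc27a2 in 2) were left out. The test was limma 3.58.1 (R 4.3.3) with a mean-variance trend on log2(FPKM + 1), over 11216 entries with a mean of at least 1 FPKM, the 3 groups fitted together, and Benjamini-Hochberg adjustment at 0.05 over all entries in each comparison. It was run on simulated data with 200 changed genes, whose scatter was independent from gene to gene. That run does not cover scatter that many genes of a library share. Every library was left out in turn, and other pseudocounts, filters, scalings and fits were tried. Genes described were those called, the 5 of smallest p in each comparison and the most abundant of each role; of the other lists, those called, except 1 result that is not reported here. The genes and lists were chosen with earlier results of these data known. Residual correlations showed no clear pairing by library number across groups, and the main fit used none. Promoter windows are from RefSeq GRCr8, which is not the build of the table, and serve for sequence and for which genes are neighbours. Figures were drawn with matplotlib 3.10.9.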

Additional observations from a re-analysis of the deposited data

Results flagged for a closer look

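In 69 gene-by-group sets of 5 libraries, from 22 named genes of the plasma protein list and the share of FPKM they held, 4 had 1 library far from the other 4 by Dixon's test at its 95% level, where chance gives about 1 in 20. That rate does not hold for the 5 genes picked after their values were seen, which include A2m and Lbp below. F11 read 19.2 FPKM in sedentary library 5, below the other 4 sedentary libraries, which lay between 24.1 and 25.6. Hp read 19499 FPKM in exercised library 5, above the other 4 at 11145 to 12495. A2m read 14.5 FPKM in sedentary library 3, above the other 4 at 1.52 to 3.87. Lbp read 52.0 FPKM in gap-matched library 5, above the other 4 at 27.3 to 33.4. The first of these touches a called gene: without sedentary library 5, F11 differed between exercised and sedentary livers with an adjusted p of 0.0775 in limma.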

How the results depend on the processing

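The counts of plasma protein genes called moved with the fit. For exercised minus sedentary, 2 became 0 when each library was scaled to the same FPKM sum, 1 when only the 2 groups compared were fitted, and ranged from 0 to 5 when 1 library was left out. For gap-matched minus sedentary, 2 became 1 without a filter, with quantile normalization or with a robust trend, 0 with the same FPKM sum or only the 2 groups fitted, and ranged from 0 to 2. For exercised minus gap-matched, 0 ranged up to 1. Over all entries, leaving out 1 library gave 342 to 642, 147 to 357 and 18 to 131 calls in the 3 comparisons, with the lowest counts without sedentary library 2, sedentary library 2 and gap-matched library 2, and exercised minus gap-matched gave 53 without a filter, 34 with the same FPKM sum and 16 with only those groups, against 101. The cause was not tested. FPKM values give no counting error, so how far depth limits low genes such as A2m and Mbl2 is unknown.

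The scaling moved the balance of calls over all entries. The share of lower calls was 73.1% for gap-matched minus sedentary, and 58.9%, 59.7% and 83.9% with median of ratios, quantile normalization and the same FPKM sum. For exercised minus gap-matched it was 23.8%, and 40.7%, 36.6% and 17.6% in the same order. For exercised minus sedentary it was 56.5%, and 66.1% with the same FPKM sum, where higher calls numbered 161 against 282.

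Library numbers are shared by the groups, but of 15 pairs of same-numbered libraries only 2 had residual correlations over 0.1 (range -0.27 to 0.19). Such correlations cannot show whether same-numbered libraries shared a batch. With the replicate block the calls among plasma protein genes were 0 for exercised minus sedentary and 1 for gap-matched minus sedentary, and over all entries 449, 201 and 20. The calls lost were F11 (limma adjusted p = 0.0546), Pros1 (0.0514) and Fgg (0.112).

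Among the named genes, signs turned for uncalled differences. For gap-matched minus sedentary, median of ratios gave log2 differences of Serpinc1 0.035, Plg 0.019, C2 0.023, C3 0.030. For exercised minus gap-matched, the same FPKM sum gave Fga 0.034, C3 0.0099, median of ratios gave Lbp -0.021, and quantile normalization gave Fga 0.0010, Fgb 0.020, C3 0.027, Hp 0.046, Lbp -0.0055. Leaving out 1 library gave, for exercised minus sedentary, C3 -0.15 to 0.053, A2m -0.32 to 0.35. For gap-matched minus sedentary it gave F5 -0.24 to 0.013, Serpinc1 -0.073 to 0.057, Plg -0.084 to 0.053, C2 -0.094 to 0.038, C3 -0.11 to 0.090, Hp -0.22 to 0.0074. For exercised minus gap-matched it gave Fga -0.090 to 0.069, C3 -0.12 to 0.054, Lbp -0.080 to 0.18.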

Other observations

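Some genes outside the 53 also had libraries that differed widely from others of their group. Hamp, Lcn2, Kng1l1 and Il6r were picked for description after their values were seen. Hepcidin (Hamp), the hormone that limits iron release, read 7506 FPKM in gap-matched library 5 and 5205 in gap-matched library 2, against 2523 to 3294 in the other 3 gap-matched libraries, and averaged 2736 ± 697 in the sedentary, 2058 ± 161 in the exercised and 4247 ± 2109.5 in the gap-matched livers (SD, n = 5). Lipocalin 2 (Lcn2), an acute phase protein that binds bacterial siderophores, read 57.7 FPKM in sedentary library 4 and 22.3 in exercised library 5, against 5.49 to 16.1 and 2.70 to 4.34 in the rest of those groups. In the gap-matched group Lcn2 was highest in library 5, at 18.6 FPKM, and read 15.7 in library 4. The kininogen-like gene Kng1l1 had 2 entries, whose reads may be shared. In both, exercised library 5 (2056 and 1407 FPKM), gap-matched library 4 (2182 and 1466) and sedentary library 3 (1868 and 1144) were the highest of their groups. The interleukin-6 receptor gene Il6r read 16.7 FPKM in exercised library 5, against 46.8 to 64.1 in the other 4 exercised libraries. Other genes of the signalling and secreted protein lists did not all stand out in exercised library 5. Stat3 (37.9 FPKM), Socs3 (3.75), Cebpb (92.7) and Lrg1 (27.7) lay within the range of the other exercised libraries, and Cebpd (10.4) lay above it.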
